A study of Mus musculus with 8 samples.

Results

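The 10 genes described here are markers of alternatively activated and of resident-like macrophages, and they were taken by symbol from the gene count table: *Folr2*, *Lyve1*, *Mrc1*, *Stab1*, *Cd163*, *Mgl2*, *Pf4*, *Chil3*, *Retnla* and *Cbr2*. All 10 were among the 53819 genes of the table, and 6 of the 10 had enough counts to be tested. Bone marrow-derived macrophages (BMDM) were grown from the marrow of 4 female BALB/cJ mice aged 8 weeks, over 5 days in 25 ng/mL macrophage colony-stimulating factor (M-CSF). One culture of each mouse then received 2.5 µM bilirubin, the breakdown product of heme and biliverdin, and another received the DMSO vehicle, for 48 h, which gave 4 vehicle and 4 bilirubin libraries of poly-A selected RNA. The comparison asks how exposure to bilirubin altered these markers, with each bilirubin culture set against the vehicle culture of its own mouse. M-CSF was the only cytokine that the labels name for these cultures, and each arm of each mouse was 1 culture, so these are macrophages made in vitro and not cells taken from a tissue.

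Macrophages exposed to the cytokines IL-4 and IL-13 signal through the IL-4 receptor to the transcription factor STAT6 and switch on a set of genes called alternative activation, among them *Retnla*, *Chil3*, *Mrc1* and *Mgl2*. Macrophages that live in tissues for long periods, often beside blood vessels and nerves, carry an overlapping set that includes *Folr2*, *Lyve1*, *Stab1*, *Cd163*, *Cbr2* and *Pf4*. Many of these proteins take up ligands from the surroundings, such as sugars, lipoproteins, folate or haptoglobin-hemoglobin complexes.

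With bilirubin, *Folr2* and *Pf4* fell by 37.1% and 31.1% over the 4 mice, and were lower in each of them. *Mrc1*, *Stab1*, *Cd163* and *Cbr2* had lower levels in mice 2, 3 and 4 and higher levels in mouse 1, and none of these 4 passed the test. *Mgl2*, *Chil3* and *Lyve1* had at most 12 counts in any library, and *Retnla* had 0 counts in all 8. Of the 6 tested members, 2 were lower at an adjusted p below 0.05, or 33.3%, against a background of 3.04% of the 13722 genes tested. None was higher (0 of 6 by edgeR, DESeq2 and limma-voom, and 0 at an unadjusted p below 0.05), against a background of 4.49%. The median log2 fold change of the 6 was -0.44, beside 0.00 for all tested genes. The members were chosen with earlier results of these data known, so these contrasts with all genes are descriptions and not a test. In bulk RNA, fewer cells that express a gene and less RNA of it in each cell cannot be told apart.

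Libraries held 34142781 to 47071714 counts on genes, and the bilirubin library of mouse 1 had the fewest. This library also stood apart from the others. By a chi-square of the counts over genes, divided by its degrees of freedom, it differed from the other bilirubin libraries by 32.0 to 48.7, while those differed among themselves by 7.12 to 17.2 and the vehicle libraries by 6.14 to 12.3. Among genes on which the other 3 mice had changes of one sign, mouse 1 had the opposite sign for 38.9%, compared to 22.2% to 27.7% for the other mice taken in the same way. Results are therefore given with and without mouse 1, and 1 culture per arm and mouse does not allow a test of whether mouse 1 differed in its response. The macrophage genes *Adgre1*, *Itgam*, *Csf1r*, *Cd68*, *Lyz2*, *Mertk*, *Fcgr1*, *Cd14* and *Spi1* were present in all libraries. Their summed level was 24400 to 24730 counts per 1000000 (CPM) in vehicle and 28850 to 30970 CPM in bilirubin cultures. Most of it was *Lyz2*, at means of 19145.4 and 24368.5 CPM. Of the 9, 4 were higher with bilirubin (*Lyz2*, *Adgre1*, *Itgam* and *Cd14*), against a background of 4.49% of all tested genes. By edgeR 0 were lower and by DESeq2 1 was, and *Cd68* and *Mertk* had lower levels in 4 of 4 mice. Without mouse 1, *Fcgr1* and *Mertk* passed as lower.

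In the vehicle cultures, the levels of the 10 genes covered a range from undetected to among the more abundant transcripts. Levels between genes were compared in TPM (transcripts per 1000000), which corrects for transcript length. *Pf4* was at 210 ± 17.5 TPM (SD, n = 4), above 94.7% of the 12063 genes with a mean of at least 1 TPM, and *Stab1* followed at 171 ± 25.4 TPM (SD, n = 4). The ranges of these neighbours overlapped. *Folr2* was at 117 ± 13.9 TPM (SD, n = 4), *Mrc1* at 53.7 ± 8.66 TPM (SD, n = 4) and *Cbr2* at 10.0 ± 1.39 TPM (SD, n = 4). Each of these lay below its neighbour in every vehicle library. *Cd163* was at 0.508 ± 0.195 TPM (SD, n = 4), and *Mgl2*, *Chil3* and *Lyve1* were at means of 0.217, 0.0885 and 0.0365 TPM, where the ranges of *Mgl2* and *Chil3* and of *Chil3* and *Lyve1* overlapped. Vehicle BMDM thus carried *Pf4*, *Stab1*, *Folr2* and *Mrc1* each above 77.0% or more of those genes. *Cd163*, *Mgl2*, *Chil3*, *Lyve1* and *Retnla* were at less than 1 TPM.

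Promoter windows from RefSeq (GRCm38.p6), running from 250 bases before to 50 bases after a transcription start, were found for 9 of the 10 genes, 2 of them for *Folr2*, and each window matched GRCm39 at 1 place. The windows printed are those of *Retnla* and *Chil3*, the classical STAT6 target genes that were undetected or nearly so, and those of *Folr2* and *Pf4*, the members that fell. The *Folr2* window is the one at the start of its expressed transcripts, 17 bases from the start of the most abundant one, and the *Pf4* window is 37 bases from that of its most abundant transcript. Capitals mark matches to 5 motifs searched on both strands. These were TTC and GAA with 4 bases between them (STAT6 type), TTC and GAA with 3 bases between them (STAT type), TTGC and AA with 2 bases between them (C/EBP type), GAGGAA (PU.1 type), and GGG, any 2 bases, TT, any base, then CC (NF-kB type).
Retnla, chr16:48842359-48842658, plus strand: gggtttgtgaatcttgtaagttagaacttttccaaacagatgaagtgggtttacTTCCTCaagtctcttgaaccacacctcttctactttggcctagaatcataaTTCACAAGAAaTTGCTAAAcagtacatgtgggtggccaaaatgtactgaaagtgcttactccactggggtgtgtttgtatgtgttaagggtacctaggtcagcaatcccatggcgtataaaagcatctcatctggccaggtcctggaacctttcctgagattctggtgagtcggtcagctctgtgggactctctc
Chil3, chr3:106167515-106167814, minus strand: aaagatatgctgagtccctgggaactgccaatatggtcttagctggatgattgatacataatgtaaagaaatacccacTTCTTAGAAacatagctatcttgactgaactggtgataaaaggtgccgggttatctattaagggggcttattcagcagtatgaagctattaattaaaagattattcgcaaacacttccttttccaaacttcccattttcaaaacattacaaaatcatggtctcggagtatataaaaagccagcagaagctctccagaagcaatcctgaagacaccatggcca
Folr2, chr7:101845282-101845581, minus strand: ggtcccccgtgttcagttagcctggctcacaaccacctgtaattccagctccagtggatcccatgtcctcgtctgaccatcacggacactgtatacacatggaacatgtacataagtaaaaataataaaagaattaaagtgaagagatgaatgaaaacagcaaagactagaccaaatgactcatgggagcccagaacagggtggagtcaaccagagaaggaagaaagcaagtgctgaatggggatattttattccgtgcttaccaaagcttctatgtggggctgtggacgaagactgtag
Pf4, chr5:90772185-90772484, plus strand: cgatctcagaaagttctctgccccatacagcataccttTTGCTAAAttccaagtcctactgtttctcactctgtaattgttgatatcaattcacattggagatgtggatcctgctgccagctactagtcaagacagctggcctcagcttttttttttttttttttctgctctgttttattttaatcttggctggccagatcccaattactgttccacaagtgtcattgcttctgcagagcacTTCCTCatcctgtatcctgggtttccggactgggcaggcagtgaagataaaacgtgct

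The *Retnla* window held a STAT6-type match at positions -145 to -136 from the start and a C/EBP-type match at -134 to -127, only a base apart, and a PU.1-type match on the opposite strand at -196 to -191. The *Chil3* window held a STAT-type match at -172 to -164. In the *Pf4* window the C/EBP-type match lay at -212 to -205, with the same 8 bases TTGCTAAA as in *Retnla*, and a PU.1-type match lay on the opposite strand at -8 to -3. The *Folr2* window held none of the 5. Among the other members, *Cbr2* had a STAT6-type match at 25 to 34, and *Cbr2*, *Mgl2*, *Mrc1* and *Stab1* had PU.1-type matches, 3 of them in *Mrc1*. No match overlapped another. Among all 32851 promoter windows of this length, 6.95% held the STAT6 type, 8.30% the STAT type, 10.8% the C/EBP type, 28.3% the PU.1 type and 4.79% the NF-kB type, which no member held. These matches are descriptions of the letters and not evidence of binding.

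Resident-like surface markers were described first. *Folr2* (ENSMUSG00000032725, GRCm39 chromosome 7, 101489195 to 101506401, minus strand) encodes folate receptor beta, a membrane-anchored receptor that marks tissue-resident macrophages. Its levels, in CPM scaled by TMM (edgeR's correction for library composition), were 56.4, 56.9, 59.7 and 72.5 for mice 1 to 4 under vehicle and 46.4, 31.7, 33.7 and 43.6 under bilirubin. Every bilirubin culture was lower than every vehicle culture. The fall was 0.67 on the log2 scale (log2 fold change -0.67, SE 0.09, 95% confidence interval -0.87 to -0.47) (quasi-likelihood test in edgeR, adjusted p = 0.00273). It was smallest in mouse 1, where the log2 difference was -0.28, and lay between -0.84 and -0.73 in mice 2 to 4. *Folr2* passed in all 12 alternative analyses, with adjusted p-values from 5.98e-17 to 0.0393, and its log2 fold change was -0.80 without mouse 1.

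*Folr1*, the paralog that encodes folate receptor alpha, was at 1.80 ± 0.0973 CPM (SD, n = 4) in vehicle and 1.05 ± 0.269 CPM (SD, n = 4) in bilirubin cultures. It was lower in 4 of 4 mice and did not pass the test (log2 fold change -0.80, SE 0.23, adjusted p = 0.0812). The annotation places the long noncoding RNA *Gm10602* and the pseudogene *Gm45319* on the opposite strand of *Folr2*. *Gm10602* was near 2 CPM, at 1.79 CPM in vehicle, and *Gm45319* at 0, far below *Folr2*. *Lyve1* (ENSMUSG00000030787, chromosome 7, 110448585 to 110462460, minus strand), which encodes a hyaluronan receptor of lymphatic endothelium and of macrophages around blood vessels, was barely detected. It had 0, 6, 1 and 0 counts in the vehicle and 0, 4, 2 and 1 in the bilirubin cultures of mice 1 to 4. Its summed counts were 7 in each group, or 0.0412 CPM of the library totals (exact Poisson 95% interval 0.0166 to 0.0849) in vehicle and 0.0458 CPM (0.0184 to 0.0944) with bilirubin. These intervals cover counting error only, and a difference in *Lyve1* was not detectable at this depth.

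**Figure D1:**
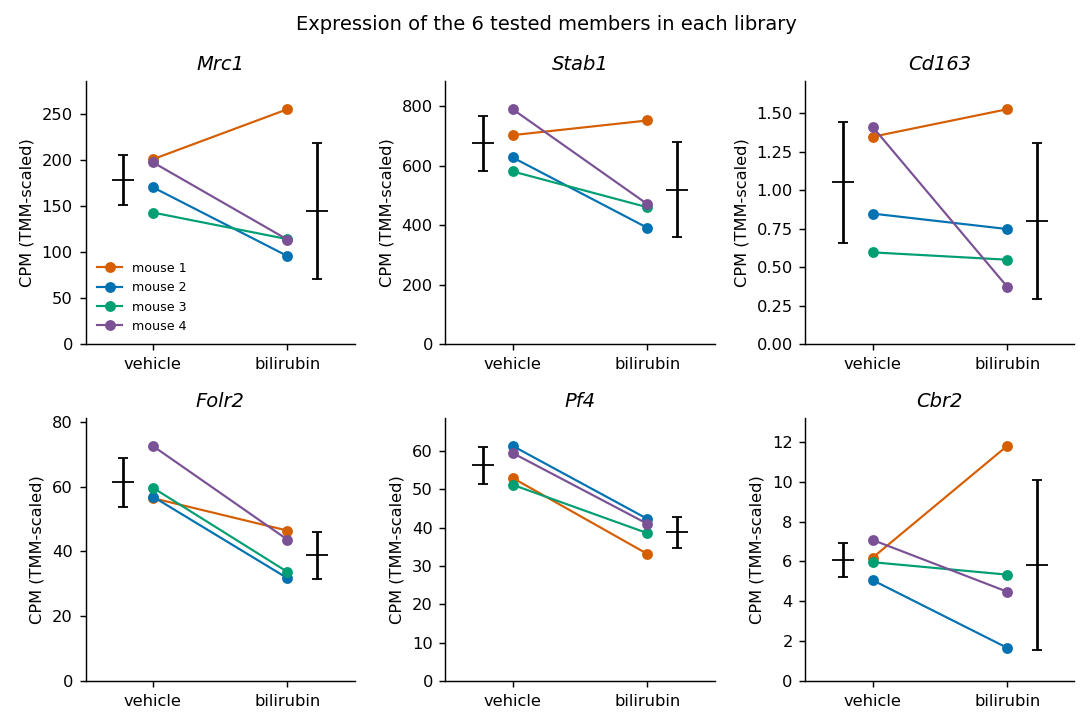
Expression of the 6 tested members in CPM scaled by TMM (vertical axis, from 0) in the vehicle and the bilirubin culture of each mouse, with lines joining cultures of 1 mouse and black bars giving the mean ± SD of 4 mice. All 4 lines go down for *Folr2* and *Pf4*, whereas the line of mouse 1 goes up for *Mrc1*, *Stab1*, *Cd163* and *Cbr2*.

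Of the endocytic receptors, *Mrc1* and *Stab1* were well expressed. *Mrc1* (ENSMUSG00000026712, chromosome 2, 14234151 to 14336926, plus strand) encodes the mannose receptor CD206, which takes up mannose-bearing glycoproteins and is a widely used surface marker of alternative activation. Its levels, again for mice 1 to 4, were 201, 171, 143 and 198 CPM under vehicle and 256, 96.0, 114 and 114 CPM under bilirubin. In mice 2 to 4 the bilirubin cultures were all below the vehicle cultures, by 0.33 to 0.83 on the log2 scale (log2 differences -0.33 to -0.83), and in mouse 1 the bilirubin culture had the highest *Mrc1* of all 8. Over the 4 mice the log2 fold change was -0.40 (SE 0.17, 95% confidence interval -0.79 to -0.01) and the gene did not pass (adjusted p = 0.233). Without mouse 1 it passed, with a log2 fold change of -0.65 and an adjusted p of 2.28e-04, within a range from 2.60e-06 to 0.648 over 12 alternatives. *Mir511*, a microRNA inside *Mrc1* on the same strand, had 0 counts, which in poly-A selected libraries gives no measure of the mature microRNA.

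*Stab1* (ENSMUSG00000042286, chromosome 14, 30860970 to 30890598, minus strand) encodes stabilin-1, a large scavenger receptor that clears modified lipoproteins and extracellular matrix fragments. Its levels were 703, 628, 581 and 790 CPM in the vehicle and 752, 391, 461 and 471 CPM in the bilirubin cultures of mice 1 to 4. The pattern was that of *Mrc1*, with the groups separate in mice 2 to 4 and the bilirubin culture of mouse 1 within the vehicle range. The log2 fold change was -0.42 (SE 0.12, 95% confidence interval -0.69 to -0.14), with an adjusted p of 0.0854, and *Stab1* did not pass. Without mouse 1 it was -0.59 with an adjusted p of 1.01e-04, within a range from 3.13e-10 to 0.338 over 12 alternatives. Its paralog *Stab2*, a hyaluronan scavenger receptor of liver endothelium, was near 1 CPM in both groups and did not pass (adjusted p = 0.855). *Nt5dc2* lies in part on the opposite strand of *Stab1*, at 204 CPM in vehicle, and was itself lower with bilirubin in 4 of 4 mice (log2 fold change -0.27, adjusted p = 0.00447). How the counting used strand was not given in the sources used here.

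*Cd163* (ENSMUSG00000008845, chromosome 6, 124281606 to 124307560, plus strand) encodes the receptor for haptoglobin-hemoglobin complexes, through which macrophages take up heme iron. It was poorly expressed, at 1.35, 0.848, 0.596 and 1.41 CPM in the vehicle and 1.53, 0.747, 0.548 and 0.373 CPM in the bilirubin cultures, or 15 to 64 counts per library. Groups overlapped, and the largest difference, of mouse 4, was -1.79 on the log2 scale, against differences of -0.17 and -0.11 in mice 2 and 3. The log2 fold change was -0.46 (SE 0.37, 95% confidence interval -1.32 to 0.39), with an adjusted p of 0.555. *Cd163* did not pass in any of the 11 alternatives that tested it, and its log2 fold change was -0.03 without mouse 4 and -0.74 without mouse 1.

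*Mgl2* (ENSMUSG00000040950, chromosome 11, 70020954 to 70028376, plus strand) encodes CD301b, a galactose-binding lectin of alternatively activated macrophages and dendritic cells. Its counts were 7, 8, 12 and 5 in the vehicle and 2, 10, 4 and 0 in the bilirubin cultures, which is 0.188 CPM of the library totals (exact Poisson 95% interval 0.129 to 0.266) and 0.105 CPM (0.0599 to 0.170). The gene had too few counts to be tested, and its intervals overlapped. *Clec10a*, its paralog, was at 3.17 ± 0.610 CPM (SD, n = 4) in vehicle and 2.83 ± 0.431 CPM (SD, n = 4) with bilirubin, and did not pass (log2 fold change -0.16, SE 0.14, adjusted p = 0.602).

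**Figure D2:**
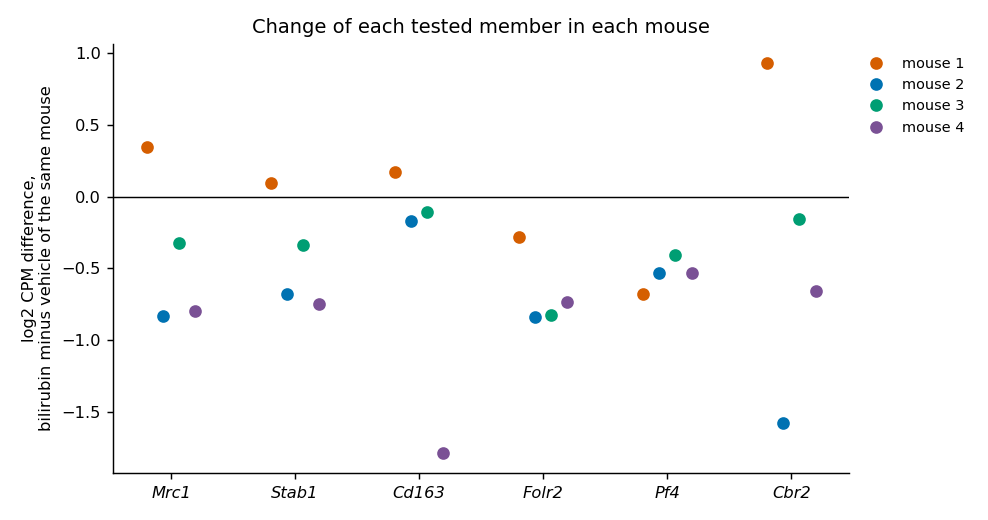
Difference in log2 CPM between the bilirubin and the vehicle culture of each mouse (vertical axis) for the 6 tested members, 1 point per mouse. Mouse 1 lies above 0 for *Mrc1*, *Stab1*, *Cd163* and *Cbr2* and below 0 for *Folr2* (-0.28) and *Pf4* (-0.68), while mice 2 to 4 lie below 0 for all 6.

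Among the secreted proteins, only *Pf4* had enough counts to be tested. *Pf4* (ENSMUSG00000029373, chromosome 5, 90918479 to 90922110, plus strand) encodes platelet factor 4, or CXCL4, a heparin-binding chemokine known from platelet granules that resident-like macrophages also express. Its levels were 53.0, 61.3, 51.2 and 59.5 CPM in the vehicle and 33.1, 42.3, 38.6 and 41.0 CPM in the bilirubin cultures of mice 1 to 4. The groups did not overlap, and the drop was similar in all mice, from -0.41 to -0.68 on the log2 scale. The log2 fold change was -0.54 (SE 0.05, 95% confidence interval -0.65 to -0.42), with an adjusted p of 5.43e-04 by edgeR. *Pf4* passed in all 12 alternatives, with adjusted p-values from 4.38e-14 to 0.00729. The 7 markers of megakaryocytes and platelets, *Ppbp*, *Gp1bb*, *Gp9* and *Itga2b* among them, summed to 0.329 to 0.481 CPM in vehicle and 0.174 to 0.858 CPM in bilirubin cultures, with none of the 7 testable and *Gp1bb* at 0.

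*Chil3* (ENSMUSG00000040809, chromosome 3, 106054870 to 106074880, minus strand) encodes Ym1, a chitinase-like lectin released by IL-4-stimulated macrophages. It had 10, 2, 2 and 0 counts in the vehicle and 4, 3, 5 and 0 in the bilirubin cultures, or 0.0824 CPM of the library totals (exact Poisson 95% interval 0.0450 to 0.138) and 0.0786 CPM (0.0406 to 0.137). Its near-identical copy *Chil4* was at 0 in all libraries. *Retnla* (ENSMUSG00000061100, chromosome 16, 48662895 to 48664824, plus strand) encodes RELM alpha, or FIZZ1, a small secreted protein among the most induced by IL-4. Its count of 0 over all vehicle and over all bilirubin libraries allows a level of up to 0.0177 and 0.0196 CPM (3 counts of the summed totals). The paralog *Retnlg* was likewise at 0 in all 8 libraries. No effect of bilirubin on these genes could be measured in cultures where they were this low.

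*Cbr2* (ENSMUSG00000025150, chromosome 11, 120620312 to 120622940, minus strand) encodes a mitochondrial carbonyl reductase that is used as a marker of resident-like macrophages. It had the largest coefficient of variation of the 6 among the bilirubin cultures, at 6.18, 5.06, 5.96 and 7.08 CPM in the vehicle and 11.8, 1.66, 5.34 and 4.48 CPM in the bilirubin cultures of mice 1 to 4. The culture of mouse 1 was the highest of all 8 and that of mouse 2 the lowest, with log2 differences of 0.93 and -1.58, so that the coefficient of variation was 73.6% with bilirubin and 13.7% in vehicle. The log2 fold change was -0.28 (SE 0.33, 95% confidence interval -1.04 to 0.47), with an adjusted p of 0.703. It turned to 0.058 without mouse 2, and without mouse 1 it was -0.73 and passed (adjusted p = 0.0458), within a range from 0.0458 to 0.966 over 12 alternatives.

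The count of members that passed thus depended on mouse 1 and on the filter. With all mice and no filter on low counts, 4 members were lower, beside 774 of the 26021 genes tested. Without mouse 1 and with the filter kept, 5 of the 6 tested members were lower (*Folr2*, *Pf4*, *Stab1*, *Mrc1* and *Cbr2*). The background was 6.43% of the 13758 genes tested in those 6 libraries. In the same fit 0 members were higher, against a background of 7.46%. The median log2 fold change of the 6 was then -0.69. For mice 1 to 4 in turn, the median difference of the 6 was 0.14, -0.76, -0.33 and -0.74, and the median over all genes was 0.00 in each. A higher level in mouse 1 with a lower one in the other 3 was seen for 4 of 6 members and for 9.15% of all tested genes. This sign pattern is the one seen in those 4 members, so its share among the members is a description and not a test.

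**Figure D3:**
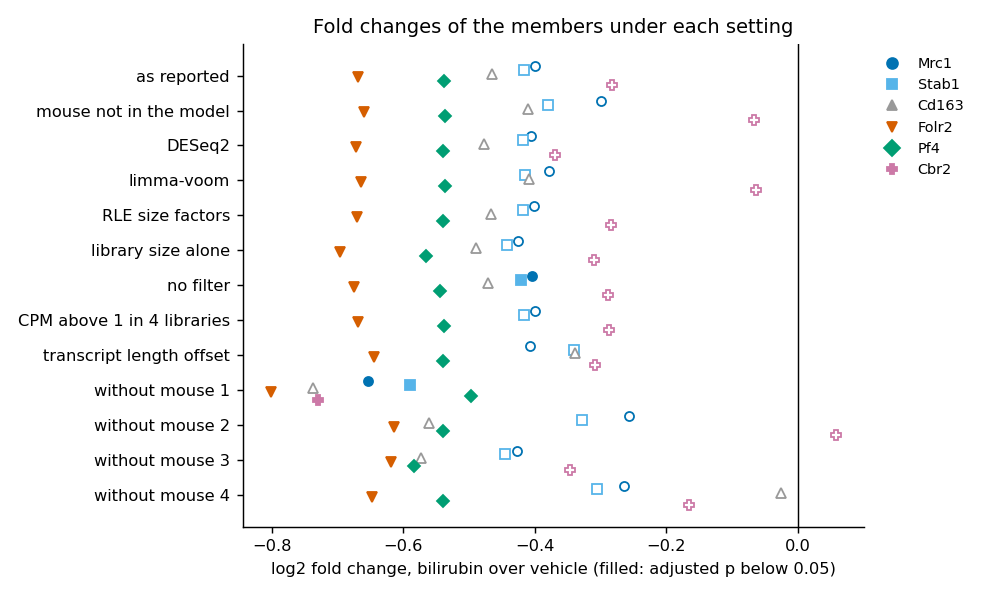
Log2 fold change of bilirubin over vehicle (horizontal axis) for the 6 tested members under the reported analysis and 12 alternatives (rows), with filled symbols at an adjusted p below 0.05. *Folr2* and *Pf4* are filled in every row, *Mrc1* and *Stab1* without a filter and without mouse 1, and *Cbr2* without mouse 1, and *Cd163* is absent from the row with a filter of CPM above 1.

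Transcripts were compared next, as the share of a gene's TPM. *Mrc1*, *Pf4* and *Cbr2* were each read almost wholly as 1 transcript. *Stab1* was not, and its full-length transcript of 7999 bases and 69 exons took 72.4%, 71.4%, 68.6% and 68.1% of the TPM for mice 1 to 4 under vehicle and 67.8%, 65.5%, 64.3% and 58.9% under bilirubin. This share was lower in 4 of 4 mice, with a bilirubin minus vehicle difference of -5.97 ± 2.25 points (SD, n = 4), and the groups did not overlap. A transcript of 3001 bases at the 3′ end of the gene (ENSMUST00000161129, 20 exons) took 12.9 ± 2.59% (SD, n = 4) in vehicle and 17.1 ± 1.80% (SD, n = 4) with bilirubin, and was higher in 4 of 4 mice.

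For *Folr2*, the leading transcript (ENSMUST00000094141, 1067 bases) took 80.4 ± 1.93% (SD, n = 4) of the TPM in vehicle and 76.3 ± 2.22% (SD, n = 4) in bilirubin cultures, lower in 4 of 4 mice. A shorter form of 667 bases that starts nearby (ENSMUST00000209329) took 18.4 ± 1.98% (SD, n = 4) and 22.1 ± 2.05% (SD, n = 4), higher in 4 of 4 mice. Both forms of *Folr2* therefore had less TPM with bilirubin in each mouse, and their balance moved by a few points. Of *Cd163*, most TPM fell on a partial transcript of 6 exons at the 3′ end (ENSMUST00000203210), which took 0% to 87.4% in vehicle and 50.5% to 91.5% in bilirubin cultures, at a depth of 15 to 64 counts. An exact two-sided sign-flip test over the 4 mice gave p = 0.125 for each of the *Stab1* and *Folr2* shares named, the smallest p that 4 pairs allow, and p = 0.625 for the *Cd163* share. Shares within a gene add up to a fixed total, so the fall of a long form and the rise of a shorter one are not separate observations. How often such shifts occur among other genes was not tested. How even read coverage was along the transcripts was not tested.

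**Figure D4:**
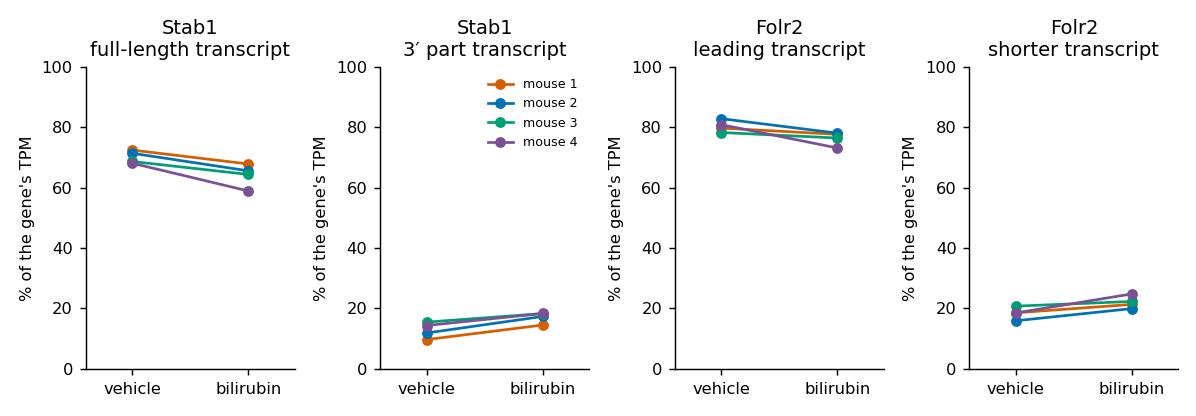
Share of a gene's TPM (vertical axis, percent, from 0 to 100) taken by a long and a shorter transcript of *Stab1* and of *Folr2* in the vehicle and bilirubin culture of each mouse, 1 line per mouse. All 4 lines go down for the long transcripts and up for the shorter ones, with mean differences of -5.97 and 4.28 points for *Stab1* and of -4.11 and 3.66 points for *Folr2*.

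The genes around the members were then counted by list, against backgrounds of 3.04% lower and 4.49% higher among all tested genes. The lists too were chosen with earlier results of these data known, so their counts are descriptions and not tests. The IL-4 receptor and its signalling genes were expressed, with *Stat6* at 219 to 236 CPM and *Il4ra* at 57.2 to 67.2 CPM over the 8 libraries, and neither passed the test. Of 14 tested genes, 2 were higher and 0 lower (3 were lower at an unadjusted p below 0.05, and 0 at an adjusted p by DESeq2 and limma-voom), with a median of -0.02. *Il2rg*, the common gamma chain shared by several cytokine receptors, rose from 43.8 ± 3.69 to 115 ± 15.2 CPM (SD, n = 4, adjusted p = 1.66e-05), and *Klf4*, a transcription factor, from 20.2 ± 2.85 to 24.9 ± 3.75 CPM (SD, n = 4, adjusted p = 0.00773). *Klf4* did not pass without mouse 3, without mouse 4 or with mouse left out of the model (adjusted p = 0.0727, 0.0609 and 0.219).

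Of 16 other alternative activation markers, 11 were tested, 1 was higher and 1 lower, with a median of -0.10. *Tfec*, a transcription factor induced by IL-4, rose by a log2 fold change of 0.28 (SE 0.06, adjusted p = 0.0268), and did not pass without mouse 3, without mouse 4 or with the transcript length offset (adjusted p = 0.166, 0.165 and 0.117). *Flt1*, a receptor for vascular endothelial growth factor, fell from 16.8 ± 1.96 to 9.08 ± 1.31 CPM (SD, n = 4, adjusted p = 5.62e-04). *Arg1*, the arginase that competes with nitric oxide synthase for arginine, stayed below 1 CPM in every library (adjusted p = 0.643), the chemokine genes *Ccl17* and *Ccl22* were each below 0.3 CPM, and *Chil4* was at 0. Other genes of the same list were well expressed, such as *Tgm2*, a transglutaminase, at 182 to 227 CPM over the 8 libraries.

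Of 25 other resident-like macrophage markers, 18 were tested, with 6 lower, 2 higher and a median of -0.33. *Gas6*, a bridging ligand through which TAM receptors bind dying cells, fell from 284 ± 34.4 to 142 ± 56.5 CPM (SD, n = 4, adjusted p = 0.00114). The iron exporter *Slc40a1* fell by 0.71 on the log2 scale (log2 fold change -0.71, SE 0.10, adjusted p = 0.00296), and *Fcgrt*, the neonatal Fc receptor, had a log2 fold change of -0.49 (SE 0.11, adjusted p = 0.0293). *Ednrb*, an endothelin receptor, rose from 4.49 ± 0.896 to 12.9 ± 1.88 CPM (SD, n = 4, adjusted p = 1.98e-04), and the growth factor *Igf1* rose by a log2 fold change of 0.16 (SE 0.03, adjusted p = 0.0233). Of the 12 alternatives, *Fcgrt* passed in 8 and *Igf1* in 7, and neither passed without mouse 2, mouse 3 or mouse 4. *Timd4*, *Vsig4* and *Cd209g* were too low to be tested, and *Cd209b*, *Cd209d*, *Cd209f* and *Ccl8* were at 0.

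Mouse 1 stood apart in this list as it did among the members. The median log2 difference of the 18 genes was 0.10 for mouse 1 and -0.63, -0.27 and -0.53 for mice 2 to 4. Of the 18, 8 (*Maf*, *Fcna*, *Selenop*, *Hpgd*, *Wfdc17*, *Gpr34*, *C1qb* and *C1qc*) were higher in mouse 1 and lower in the other 3, beside 9.15% of all tested genes. *Maf*, a transcription factor of resident macrophages named here after its values were seen, was at 259, 225, 218 and 257 CPM in vehicle and 358, 142, 180 and 177 CPM in bilirubin cultures. The number that passed was 8 with all mice, 12 without mouse 1 and 3 without mouse 2, mouse 3 or mouse 4. Calls over all tested genes moved in the same direction. Genes lower numbered 417 with all mice, 884 without mouse 1 and 112 to 215 without another mouse. Genes higher numbered 616, 1026 and 265 to 419 in the same fits. Of 18 classical activation markers, 14 were tested and 8 were higher, with a median of 0.95. *Nos2* and *Gpr18*, 2 of the 8, passed the filter on low counts only through the bilirubin cultures, and with a filter of CPM above 1 in 4 libraries, which leaves them out, 6 of 12 were higher with a median of 0.73. In the list of 14, mouse 1 moved with the others there (median 0.78, beside 0.81, 1.201 and 1.06).

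In that classical list, 0 genes were lower by edgeR, DESeq2 or limma-voom, also at an unadjusted p below 0.05. The 6 with the smallest adjusted p were *Ccl5*, *Tnf*, *Fpr2*, *Il1b*, *Socs3* and *Nos2*. The chemokine gene *Ccl5* rose from 1.102 ± 0.0485 to 11.7 ± 2.704 CPM and *Tnf* from 37.2 ± 3.49 to 64.6 ± 10.9 CPM (SD, n = 4). *Fpr2*, a formyl peptide receptor, and the cytokine gene *Il1b* had log2 fold changes of 2.76 and 2.80, and *Socs3*, a feedback inhibitor of cytokine signalling, had 1.35. *Nos2*, the inducible nitric oxide synthase, was at 0.00 to 0.08 CPM in vehicle and 0.26 to 1.62 CPM in bilirubin cultures.

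**Figure D5:**
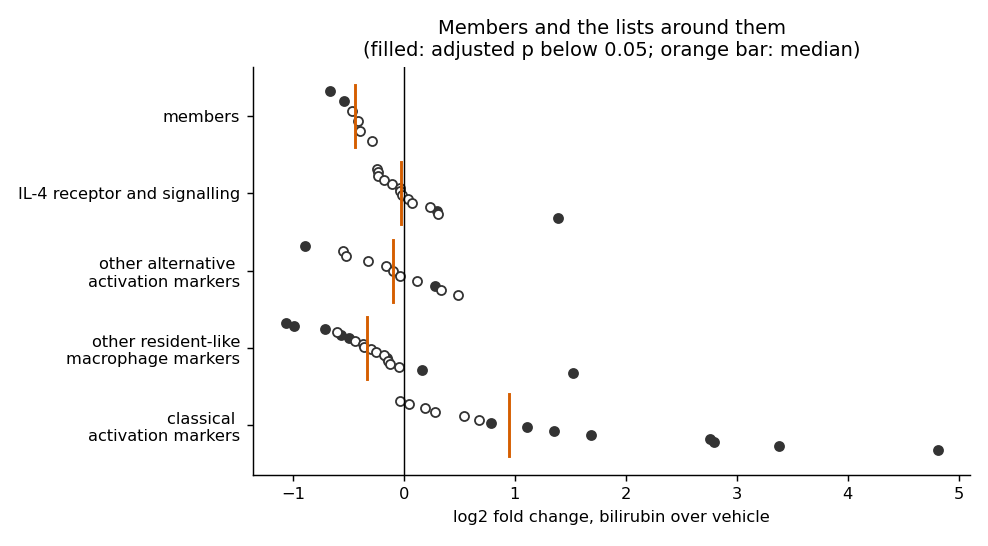
Log2 fold change of bilirubin over vehicle (horizontal axis) for each tested gene of the members and of the 4 lists around them, with filled points at an adjusted p below 0.05 and an orange bar at the median. The members and the other resident-like markers have medians of -0.44 and -0.33, the IL-4 receptor and signalling genes of -0.02 and the classical activation markers of 0.95.

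Other cell types could carry some of these genes, so their markers were counted too. *Emcn* and *Tek* of endothelium were at 0.08 CPM or less. *Kdr*, *Cdh5*, *Stab2*, *Pecam1* and *Flt4* were detected in all 8 libraries, with *Kdr* the most abundant. In vehicle the last 4 had means of 1.404, 0.843, 0.532 and 0.330 CPM. *Pecam1* was lower with bilirubin in 4 of 4 mice and its groups did not overlap (log2 fold change -0.60, edgeR adjusted p = 0.334). *Cdh5* and *Flt4* were lower in 3 of 4 mice, and *Kdr* and *Stab2* in 2 of 4. The endothelial list summed to 14.8 to 16.5 CPM in vehicle and 10.5 to 20.4 CPM in bilirubin cultures. Of its 5 tested genes, 0 passed by edgeR, DESeq2 or limma-voom, and 0 were at an unadjusted p below 0.05. The dendritic cell list summed to at most 0.647 CPM, with none of 7 testable. Stromal markers summed to 2.31 to 8.25 CPM in vehicle and 2.38 to 8.18 CPM in bilirubin cultures, with *Lum* at 0 and 0 of 3 tested genes passing (at an unadjusted p below 0.05, 1 was lower by edgeR and by DESeq2 and 0 by limma-voom, and 0 passed the adjusted threshold by either). The neutrophil list summed to 11.5 to 14.2 CPM in vehicle and 20.2 to 32.8 CPM in bilirubin cultures. *S100a8* made up most of this sum and rose (log2 fold change 1.07, edgeR adjusted p = 3.34e-04). *Cxcr2*, *Ltf*, *Ngp*, *Mpo* and *S100a9* had means of 0.449, 0.181, 0.164, 0.160 and 0.0782 CPM in vehicle. With bilirubin their means were 0.410, 0.230, 0.382, 0.239 and 0.259 CPM. *Cxcr2* and *Mpo* were tested and did not pass (edgeR adjusted p = 0.794 and 0.767). *Ly6g*, *Camp* and *Elane* were near 0 and *Retnlg* was at 0. Lymphoid and erythroid lists summed to at most 0.194 and 0.249 CPM, and eosinophil, basophil and mast cell markers to at most 3.60 CPM, with *Siglecf* the most abundant of them. The part of any of these cells in the members' changes was not tested.

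The genes whose pattern over the 8 libraries was nearest to that of *Folr2*, by the root mean square difference of centred log2 CPM among 10901 candidates, were *Thsd1* (0.1098) and *Sema4c* (0.114). Nearest to *Pf4* were *Chst3* (0.0750) and *Clec2i* (0.0808). All 4 were lower with bilirubin and passed with all mice, with log2 fold changes of -0.73 for *Thsd1*, -0.59 for *Sema4c*, -0.53 for *Chst3* and -0.44 for *Clec2i*. *Chst3* passed in all 12 alternatives, *Sema4c* in 10, *Thsd1* in 8 and *Clec2i* in 7, with adjusted p-values of up to 0.0517, 0.1004 and 0.125 for the last 3. They were picked for likeness over the same libraries, treatment difference included. Their falls and calls therefore follow largely from that choice and add no separate evidence on the members.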

How the data were processed

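RNA of 8 BMDM cultures, 1 vehicle and 1 bilirubin culture from each of 4 mice, was sequenced after poly-A selection. Per the labels and the methods, reads were trimmed with Trim Galore 0.6.7 and Cutadapt 3.4, aligned with STAR 2.7.9a to GRCm39 and quantified with Salmon 1.10.1. The authors deposited expected counts (estimated reads per gene, not normalized) and, for each library, the expected counts, effective lengths and TPM of its transcripts. Columns of the authors' own comparisons were not used.

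Gene counts were rounded and tested with edgeR 4.0.16 in R 4.3.3, by TMM scaling, filterByExpr on the treatment groups (minimum count 10, total 15), a design of mouse plus treatment, the quasi-likelihood test and Benjamini-Hochberg adjustment over all tested genes, at a threshold of 0.05. Floors of undetected genes were set at 3 counts. The pairing rests on the BMDM number in the labels, taken as the mouse. Deviations from the group means of same-mouse cultures correlated at 0.108, 0.134, 0.108 and -0.0053 for mice 1 to 4. Between different mice they correlated at -0.0279 on average and at 0.0751 at most, which is above the value of mouse 4. The alternatives were treatment alone, DESeq2 1.42.0, limma-voom (limma 3.58.1), other scalings and filters, a transcript length offset, and each mouse left out. The procedure was tested on simulated data, with changes larger than those of the members and no effect of mouse. At the threshold of 0.05, edgeR recovered 95.8% of the changed genes, and 8.5% of its calls were false. Recovery of changes as small as those of the members was not tested.

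The named genes were every member, their paralogs, the genes of 4 pathway lists that passed (at most 6 per list, by smallest adjusted p), the 2 genes nearest in pattern to each member that passed (mean log2 CPM of at least 1), and cell type markers. The members and lists were chosen with earlier results of these data known. Positions are those of the GENCODE annotation of GRCm39. Promoter sequences are those of RefSeq for GRCm38.p6, *Lyve1* had no entry, and protein sequences were not used here. The results of 2 genes of the lists are not reported here.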

Additional observations from a re-analysis of the deposited data

Results flagged for a closer look

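In each group of 4 libraries, the highest and the lowest value of the 6 tested members and of the 16 named genes of the lists were compared with the rest by Dixon's ratio, the gap to the nearest library over the whole range and its 95% critical value. Of the 44 groups, 4 held such a value, and chance gives about 1 in 20. *Mrc1* in the bilirubin culture of mouse 1 was at 256 CPM, beside 96.0 to 114 CPM in the other 3 bilirubin cultures (ratio 0.885). *Gas6* was at 226 CPM in the same culture, beside 103 to 122 CPM in the others (ratio 0.844). In the bilirubin culture of mouse 2, *Il2rg* was at 92.9 CPM, beside 121 to 125 CPM (ratio 0.887), and *Slc40a1* at 93.1 CPM, beside 52.1 to 58.4 CPM (ratio 0.847).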

How the results depend on the processing

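*Folr2* and *Pf4* kept their direction and passed in all 12 alternatives. Without the replicate block, that is with mouse left out of the model, 2 members were lower and 0 higher, *Folr2* and *Pf4* again (log2 fold changes -0.66 and -0.54), and the blocked fit differed in no other call on a member. Genes lower over the whole table then numbered 228, with 417 paired by mouse, and 1 gene of the IL-4 list passed. Leaving out a mouse moved the log2 fold change of *Mrc1* between -0.65 and -0.26, of *Stab1* between -0.59 and -0.31 and of *Cbr2* between -0.73 and 0.058, the last without mouse 2 and reversed. Members lower then ranged from 2 to 5, genes higher from 265 to 1026 and lower from 112 to 884, and passing genes of the IL-4, the alternative activation and the resident-like lists from 1 to 3, 1 to 3 and 3 to 12. With no filter on low counts, 774 genes and 4 members were lower, and *Mrc1* (-0.40, adjusted p = 2.60e-06) and *Stab1* (-0.42, adjusted p = 3.13e-10) passed. With the transcript length offset, 372 genes were higher and 207 lower, and 1 alternative activation and 3 resident-like genes passed. Scaling by library size alone gave 527 higher and 556 lower genes, beside 616 and 417 by TMM, and left 2 members lower, with negative log2 fold changes for all 6. The cause of these shifts was not tested. Depth did not limit *Folr2*, *Pf4*, *Mrc1* or *Stab1* (at least 1146 counts per library for *Folr2*), but limited *Cd163* and kept *Mgl2*, *Chil3*, *Lyve1* and *Retnla* from being tested. For single genes of the lists and nearest patterns, 209 of the alternatives kept the call and 30 lost it, in the same direction.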
